A study of Danio rerio with 40 samples.

Results

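Zebrafish brains that carried a fish number above 40 were compared with brains that carried a number of 40 or less. Every library of the series is titled by such a number, and the numbers ran from 2 to 95. The rule took the number from the title of the library and used no expression value. It placed 20 of the 40 brains above 40 and 20 up to 40. The labels do not say what the number records, so whether it follows the time of sampling was not tested.

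All fish were 6 months old and carried at least 1 copy of the naglu allele A603fs, a frameshift in the gene that is lost in mucopolysaccharidosis type IIIB. Heterozygous siblings (A603fs/+) are the labelled unaffected controls, and homozygous siblings (A603fs/A603fs) the disease model. Each fish had received 10 µg of ferric citrate in 0.85% saline, or the saline alone, by injection into the body cavity, and was kept apart from other fish for 7 days. Fish were killed in ice slurry, heads were stored in RNAlater, and RNA was taken from the whole brain. Among heterozygous fish up to 40, 4 had received saline and 6 iron, and among homozygous fish 6 saline and 4 iron. Above 40 the heterozygous fish were 6 with saline and 4 with iron, and the homozygous fish 4 with saline and 6 with iron. Females made up 10 of the 20 fish up to 40 and 9 of the 20 above 40. Each of the 5 home tanks held 3 to 5 fish of each band. The numbers ran through tanks 1 to 5 in order from fish 2 to 40 and again from fish 41 to 79, and fish 82, 89 and 95 came from tanks 1, 3 and 5.

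The vertebrate circadian clock is a feedback loop of transcription. The Bmal and Clock proteins switch on the period and cryptochrome genes, whose products return to the nucleus and repress them. The nuclear receptors of the Rev-erb and ROR families and the bZIP factors of the Dbp, Tef and Nfil3 families form linked loops that set the phase of many output genes. Tissues of the zebrafish sense light directly, and light induces per2, photolyases and other DNA repair genes in them. For these reasons the clock genes were described first, and the processes beside them after that.

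Library totals ranged from 11772789 to 38516546 counts. The median was 20778400 up to 40 and 29576400 above 40, so libraries of the upper band held more counts. This total is called depth below, and numbers of reads sequenced were not available. Transcripts of the mitochondrial genome took a median of 14.0% and 13.4% of counts. In the brain as a whole the neuronal gene snap25 (ENSDARG00000020609) lay between 11.44 and 12.33 log2 CPM, gfap of radial glia between 5.55 and 8.26 and the myelin gene mbpb between 6.91 and 8.72. Levels are given as log2 CPM, in which counts are scaled by library size and TMM factor after a prior count of 2 is added. The pituitary hormone gene prl stayed at or below -0.58, while the hemoglobin gene hbaa1 lay between 6.15 and 8.75. Levels of the retinal gene rho, from -0.30 to 7.08, and of the muscle gene ckma, from -1.64 to 4.16, were uneven between libraries. Fish 89 stood apart with low levels of glial, vascular and matrix genes, and fish 2 with high levels of matrix genes. Fish 39, 41 and 89 had been doubted in earlier results of these data. Without these 3 fish 3170 genes were called between the bands, and without fish 2 and 89 the number was 3489, against 4201 with every fish.

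The targeted gene naglu was lower above 40. In heterozygous fish it lay between 1.76 and 2.63 log2 CPM up to 40, median 2.18, and between 1.41 and 1.92 above 40, median 1.63. In homozygous fish it lay between 1.96 and 2.63, median 2.28, and between 1.49 and 1.87, median 1.79. In the homozygous fish the bands did not overlap, and in the heterozygous fish they did. The log2 fold change over all fish was -0.59 (SE 0.07, edgeR adjusted p = 2.7e-07, n = 20 per band) and had the same sign in 5 of 5 tanks.

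Of 19668 genes tested with genotype-treatment group, sex and home tank in the model, 2121 were higher and 2080 lower above 40 (edgeR quasi-likelihood test, Benjamini-Hochberg adjusted p under 0.05). That is 21.4% of all genes tested, 10.8% higher and 10.6% lower, and counts of list members below are read against these shares. A negative sign, called or not, was found in 10250 of the 19668 genes. Members of a list can move together, so counts of signs below are a description only. At an unadjusted p under 0.05 there were 6739. Most differences were small, with a median size of 0.22 on the log2 scale among called genes. Large differences lay on the side of falls. Beyond 1 on the log2 scale there were 68 falls and 5 rises. Many of these falls were in genes at low levels, and with a mean of at least 1 log2 CPM there were 29 falls and 4 rises. The depth of the libraries moved with the band. With the log2 library total as a further term 2061 genes were called, 1049 higher and 1012 lower.

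The 4 clock lists had the highest shares of called members among the 46 gene lists. Of 46 measured members of the 4 clock lists 17 were higher and 18 lower above 40, together 76.1% against the 21.4% of all genes. All 35 called members had the same sign in 5 of 5 tanks. The earlier results of these data already showed the clock genes, so their direction here is a description and not independent evidence.

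The list of clock repressors holds period and cryptochrome genes and also ciarta and ciartb. Of its 13 genes 10 fell and 3 rose, with a median log2 fold change of -0.87. The repressor gene ciarta lay between 4.29 and 6.26 log2 CPM up to 40, median 5.30, and between 2.62 and 4.81 above 40, median 3.34. Only 4 fish above 40 reached the lowest level of the lower band. The gene fell 3.99-fold (log2 -1.99, SE 0.12, edgeR adjusted p = 2.5e-13).

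The (6-4) photolyase gene cry5 lay between 3.03 and 4.33 log2 CPM up to 40, median 4.00, and between 1.38 and 3.16 above 40, median 2.42. It fell 2.89-fold (log2 -1.53, SE 0.09, adjusted p = 1.15e-13 by edgeR). The cryptochrome gene cry2 fell 1.82-fold (log2 -0.86, SE 0.06). Of the period genes, per1 fell at both of its loci, by 1.61 (ENSDARG00000056885, SE 0.13) and 1.1 (ENSDARG00000012499, SE 0.09) on the log2 scale, per3 fell by 1.2 (SE 0.13) and per2 by 0.74 (SE 0.07). The cryptochromes cry3a, cry3b and cry4 went the other way, with log2 fold changes of 0.57, 0.68 and 0.63.

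Among the activators and the proteins that act on them, 8 of 13 rose and 2 fell. Both bmal1 genes, which encode the partner of Clock, rose. The locus ENSDARG00000006791 lay between 3.74 and 5.02 log2 CPM up to 40, median 4.58, and between 4.82 and 5.90 above 40, median 5.26, a log2 fold change of 0.82 (SE 0.07). The locus ENSDARG00000035732 changed by 0.69 (SE 0.06). The repressor bhlhe41 fell by 0.71 (SE 0.06), in ranges of 7.26 to 8.09 and 6.56 to 7.60 log2 CPM. The Clock partner npas2 did not pass, with -0.03 (SE 0.07).

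The Rev-erb receptors repress, and the ROR receptors activate, the same sites. The Rev-erb alpha gene nr1d1 lay between 4.85 and 6.86 log2 CPM up to 40, median 5.75, and between 3.36 and 5.41 above 40, median 3.89, a 3.58-fold fall (log2 -1.84, SE 0.12). Its relative nr1d2 fell by 0.69 (SE 0.09). The ROR gene rorcb rose 3.42-fold (log2 1.77, SE 0.18), from a median of 3.48 to one of 5.26. The ROR gene rorca and the Rev-erb relative nr1d4b rose as well, by 0.62 (SE 0.10) and 0.76 (SE 0.14), so Rev-erb genes went both ways. In all 3 of these 10 receptors rose, 2 fell and 5 did not pass.

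Of the 10 bZIP factors 3 rose and 4 fell. The repressor nfil3-5 lay between 4.57 and 5.92 log2 CPM up to 40, median 5.05, and between 5.6 and 8.08 above 40, median 6.53, a 3.25-fold rise (log2 1.70, SE 0.15). The activators dbpa and dbpb, which bind the same sites, fell by 0.79 (SE 0.07) and 0.67 (SE 0.06).

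**Figure D1:**
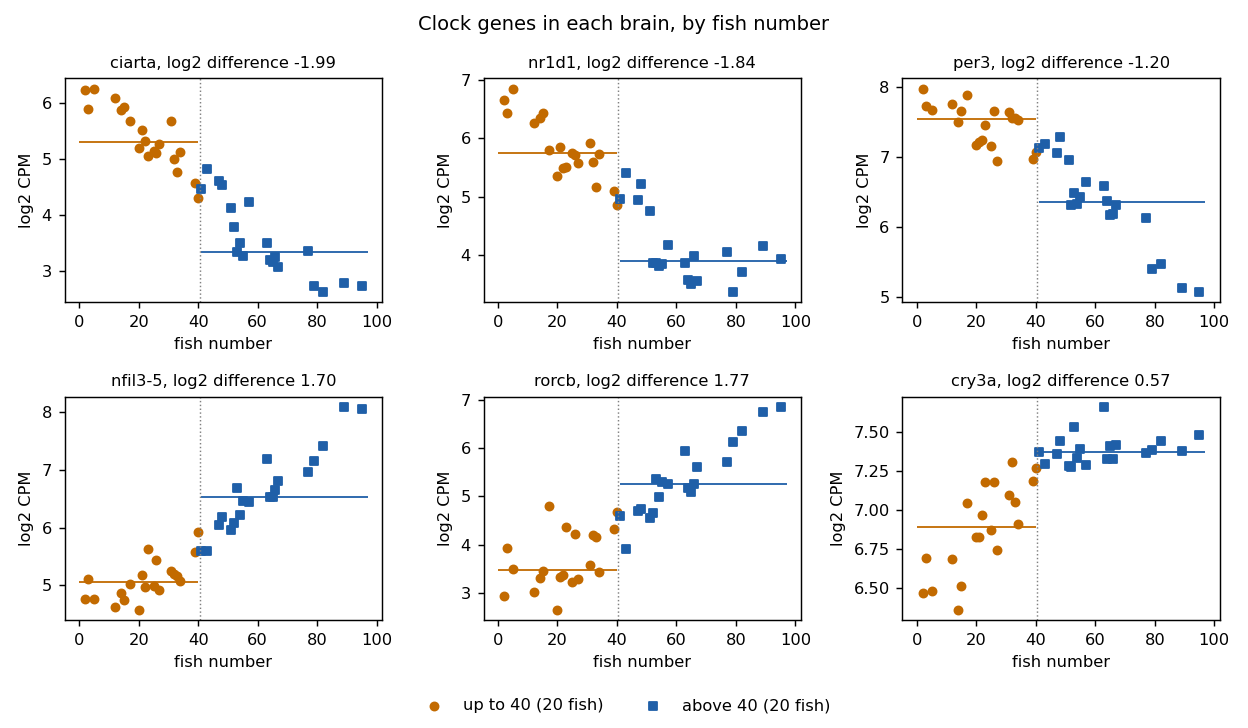
Level (log2 CPM) of 6 clock genes in each of the 40 brains against fish number, circles up to 40 and squares above 40, with a horizontal line at the median of each band and a dotted line between 40 and 41. The genes ciarta, nr1d1 and per3 are lower and nfil3-5, rorcb and cry3a higher above 40, and brains on either side of the dotted line have similar levels.

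The threshold at 40 did not fall at a gap. For ciarta, fish 39 and 40 had 4.56 and 4.29 log2 CPM and fish 41 and 43 had 4.46 and 4.81. For nr1d1 the same fish had 5.09, 4.85, 4.96 and 5.41, and for ddb2 3.84, 3.60, 3.76 and 3.93. Levels moved along the number, which follows the tanks within a band, as well as between the bands. In runs of 10 fish in number order, the median of ciarta was 5.88 for fish 2 to 22, 5.07 for fish 23 to 40, 4.18 for fish 41 to 57 and 3.11 for fish 63 to 95. The median of nfil3-5 was 4.82, 5.22, 6.13 and 7.06 in the same runs. Neighbouring numbers could still differ. From fish 51 to fish 52, both of tank 2, nr1d1 went from 4.75 to 3.86, the photolyase-like gene cry-dash from 3.93 to 3.18 and cipca from 2.45 to 1.53. Fish 51 was a heterozygous male with iron and fish 52 a homozygous female with saline.

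Over all 19668 genes 2 had bands that did not overlap, 0.0102% of them, and neither is on a clock list. These 2 were found by looking at all genes. The gene fus, which encodes an RNA-binding protein of the FET family, lay between 5.88 and 6.47 log2 CPM up to 40, median 6.13, and just above that range from there to 7.29 above 40, median 6.65. It rose 1.51-fold (log2 0.60, SE 0.04, edgeR adjusted p = 5.7e-12). Its difference within single tanks was 0.56 to 0.61. The gene cipca, whose mammalian counterpart binds Clock and represses it, lay between 2.55 and 3.59 up to 40, median 2.98, and between 0.76 and 2.52 above 40, median 1.62. It fell 2.56-fold (log2 -1.36, SE 0.11).

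DNA repair genes that light induces in zebrafish were lower in part. Of 15 measured genes 6 fell and 1 rose, 46.7% against the 21.4% of all genes, and cry5, described above, is 1 of the 6. The damage sensor ddb2 lay between 3.60 and 4.72 log2 CPM up to 40, median 4.45, and between 2.43 and 3.93 above 40, median 3.07, a 2.44-fold fall (log2 -1.29, SE 0.08, edgeR adjusted p = 2.5e-13). The gene cry-dash lay between 3.71 and 5.06, median 4.70, and between 2.40 and 4.15, median 3.11, a 2.69-fold fall (log2 -1.43, SE 0.11). In each of these genes 5 fish above 40 reached the lowest level of the lower band.

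The nucleotide excision repair gene xpc fell 1.5-fold (log2 -0.59, SE 0.06), from a median of 3.81 to one of 3.27. The gene lonrf1 fell by 0.52 (SE 0.06) and the glycosylase neil1 by 0.26 (SE 0.08). The bypass polymerase polk rose by 0.22 (SE 0.07). The median over the list was -0.14, against -0.01 over all genes. The photolyase gene cpdp did not pass, with 0.02 (SE 0.07), although it fell along the number within the upper band.

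**Figure D2:**
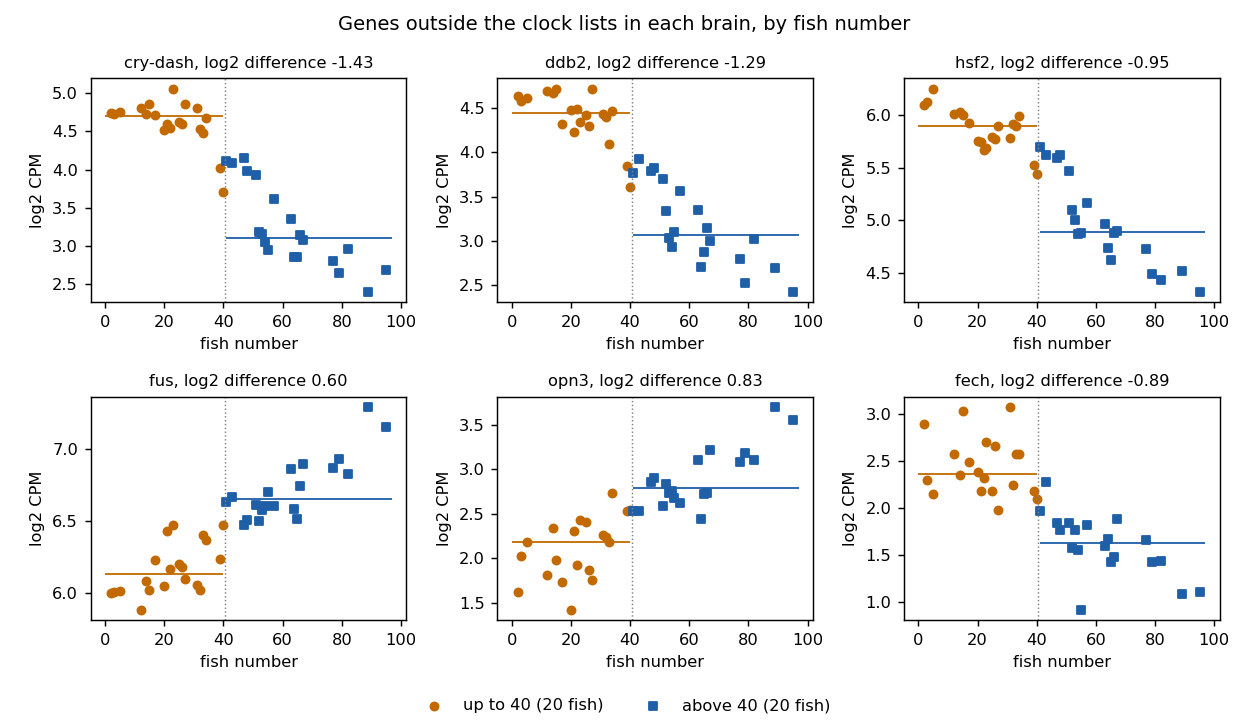
Level (log2 CPM) of 6 genes outside the clock lists in each of the 40 brains against fish number, circles up to 40 and squares above 40, with horizontal lines at band medians. The genes cry-dash, ddb2 and hsf2 fall along the upper numbers, fus and opn3 rise, and fech is lower above 40 with a less clear slope.

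Genes of RNA-binding proteins of the FET family and the cold-inducible class were among those that rose. Of 28 genes on this list 12 were higher and 1 lower, 46.4% against 21.4%. Besides fus, the FET gene ewsr1 rose by 0.21 (SE 0.03) and taf15 by 0.14 (SE 0.03). The cold-inducible gene cirbpb, an abundant transcript, lay between 8.89 and 9.36 log2 CPM up to 40, median 9.23, and between 9.25 and 9.54 above 40, median 9.37. It rose 1.16-fold (log2 0.21, SE 0.03, edgeR adjusted p = 1.5e-06). Its relative cirbpa rose by 0.17 (SE 0.03) and the splicing factor hnrnpa1a by 0.17 (SE 0.03). The splicing kinase clk4a was the member that fell, by 0.37 (SE 0.09).

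Heat shock genes changed in both directions. Of 46 genes 11 rose and 11 fell, 47.8% against 21.4%, with a median of 0.02. The falls were the larger changes. The heat shock factor hsf2 lay between 5.44 and 6.25 log2 CPM up to 40, median 5.90, and between 4.32 and 5.69 above 40, median 4.89, a 1.93-fold fall (log2 -0.95, SE 0.08, edgeR adjusted p = 1.1e-10). The collagen chaperone gene serpinh1 fell at both loci. At ENSDARG00000019949 it lay between 0.11 and 3.25, median 2.1, and between -1.14 and 1.26, median 0.39 (log2 fold change -1.79, SE 0.22). At ENSDARG00000075954 it fell by 0.64 (SE 0.11).

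The inducible chaperones dnajb1a, hsp70l and hsp70.1 fell by 0.35 (SE 0.05), 0.54 (SE 0.09) and 0.62 (SE 0.11). The rises were small. The gene cct3, a subunit of the chaperonin that folds actin and tubulin, had the smallest p among them and rose by 0.15 (SE 0.03). The chaperones of the mitochondrial matrix hspd1 and hspe1 did not pass, with -0.01 (SE 0.06) and -0.05 (SE 0.06).

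Genes known by a clone or locus name were left out of the largest changes. Among them si:dkey-18a10.3 (-2.28) and si:ch211-132b12.7 (-1.83) fell by more than serpinh1, which leads the ranked falls with a gene name below. The gene ENSDARG00000092354 rose by more than nyap2. These 3 were singled out after their values were seen. Among called genes with a gene name, outside the clock lists and with a mean level of at least 1 log2 CPM, the rises were led by fbxl3l, an F-box gene related to the ligase that degrades cryptochromes in mammals. It lay between 0.01 and 1.38 log2 CPM up to 40, median 0.72, and between 0.81 and 3.62 above 40, median 1.45, a 2.32-fold rise (log2 1.21, SE 0.19, edgeR adjusted p = 2.7e-05). The adaptor gene nyap2 (ENSDARG00000093357) of neuronal signalling rose by 0.98 (SE 0.11). The non-visual opsin gene opn3 lay between 1.41 and 2.73, median 2.18, and between 2.44 and 3.70, median 2.79, a 1.78-fold rise (log2 0.83, SE 0.10).

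The exchange factor arhgef19, the Max partner mxd3, the brain proteoglycan gene cspg5b and the lipid transporter gene mfsd2a (ENSDARG00000035909) rose by 0.75, 0.68, 0.66 and 0.65, with SEs of 0.10 to 0.14. The genes adck1, fat2, uck2b and impdh1 (ENSDARG00000029524) rose by 0.60 to 0.64. Of these impdh1, which makes guanine nucleotides, and uck2b, which salvages pyrimidines, act in nucleotide synthesis. In a list of 24 NAD, heme and nucleotide genes known as rhythmic in vertebrates 5 rose and 1 fell. That is 25.0%, near the 21.4% of all genes. Without fish 89 it was 2 and 1, where 3528 of 19722 genes tested were called. The member that fell was the uridine phosphorylase gene upp1 (-0.45, SE 0.09).

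Among genes with a gene name the falls were led by serpinh1 and, at -1.44 (SE 0.29), by nmrk2 (ENSDARG00000067848), which makes nicotinamide mononucleotide. Then came cry-dash, cipca and the retinoid isomerase gene rpe65 (ENSDARG00000007480) with -1.31 (SE 0.24). The gene rpe65 is the 1 called member of the 25 tested genes of the lens and retina list. That list marks tissue that a dissected brain can carry along, and the part of carried-over retina in this fall was not tested. The genes vmo1a, ddb2, b3gnt7 and mylip (ENSDARG00000055118) had log2 fold changes of -1.30 to -1.21. The keratin gene krt5, ntd5 and the prostaglandin D synthase gene ptgdsb.1 had -1.16 (SE 0.42), -1.14 (SE 0.16) and -1.11 (SE 0.11). The ubiquitin ligase mylip lowers the LDL receptor in mammals. For krt5 the range was 1.99 to 7.01 log2 CPM up to 40 and 2.02 to 4.12 above 40 and the medians were 2.95 and 2.75, and without fish 2 and 89 the log2 fold change was -0.78 and did not pass (edgeR adjusted p = 0.19).

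The number was also tested within each band, as a slope per 10 numbers, without a tank term because numbers follow the tanks. A slope was therefore not separated from differences between tanks. Among fish up to 40, 3 genes rose and 12 fell with the number, 0.0763% of genes tested. The clock lists held 6 of the 15. The cryptochrome gene cry1 (ENSDARG00000011583) led with -0.33 log2 per 10 numbers (SE 0.05, edgeR adjusted p = 0.00041), from a mean of 6.07 log2 CPM in the first 5 fish to 5.21 in the last 5. Next were the splicing gene smu1b (-0.23, SE 0.04), ciarta (-0.42, SE 0.07), cry2 (-0.24, SE 0.04), cry3a (0.17, SE 0.03) and the GTPase regulator rapgef6 (-0.17, SE 0.03).

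Among fish above 40, 18 genes rose and 39 fell with the number, 0.29% of genes tested. Of the 57 genes 20 are on the clock lists. The Rev-erb gene nr1d2 led with -0.30 log2 per 10 numbers (SE 0.02, edgeR adjusted p = 5.4e-11), from a mean of 8.15 log2 CPM in the first 5 fish to 6.95 in the last 5. The genes nfil3-5, per3, fbxl3l, hsf2 and bhlhe41 followed with 0.42 (SE 0.04), -0.40 (SE 0.04), 0.50 (SE 0.05), -0.25 (SE 0.03) and -0.20 (SE 0.02). Without the 3 fish numbered above 80 the number of genes was 29, 9 rising and 20 falling.

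Among the other 37 genes of the upper band were 3 of the repair genes outside the clock lists, namely ddb2 (-0.24 per 10 numbers, SE 0.04), cry-dash (-0.29, SE 0.05) and cpdp (-0.15). Chaperone genes were there as well, with hspb6 (-0.20), hspe1 (-0.11) and hspd1 (-0.10) beside hsf2. The rising ones included fus (0.11, SE 0.02), opn3 (0.18, SE 0.04) and impdh1 (0.18, SE 0.02). The genes cpdp, hspb6, hspe1 and hspd1 were chosen after their values were seen. The gene naglu had no slope that passed, with -0.06 (SE 0.05, adjusted p = 0.70 by edgeR) up to 40 and -0.02 (SE 0.03, adjusted p = 1.0) above 40. Of the synapse, proteasome, ribosome, matrix, astroglia, vascular and lysosome lists 0 members were called in either slope. Over all genes 0.0763% and 0.29% were called in the slopes, so 0 in lists of this size is near the share of all genes. The slopes share their fish with the comparison of the bands, and the values are given side by side only.

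**Figure D3:**
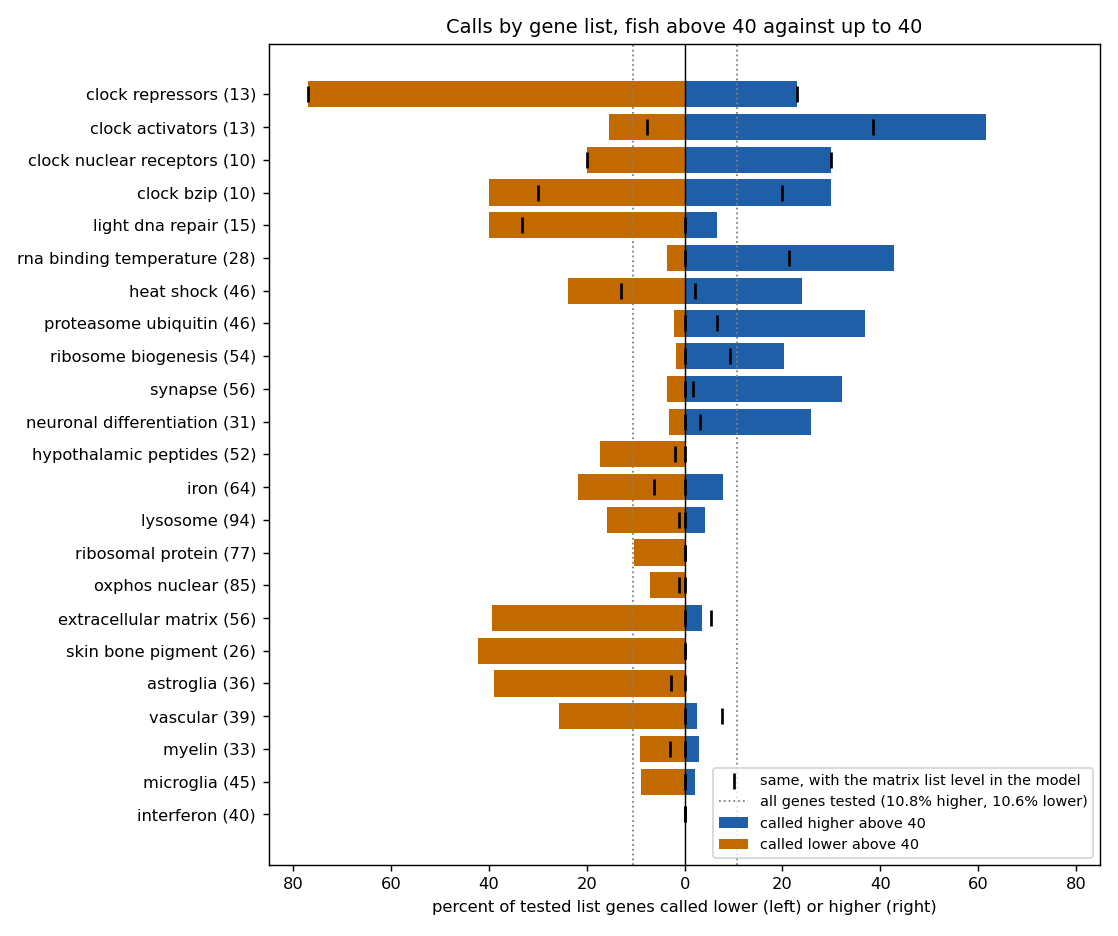
Percent of the tested members of 23 gene lists (number tested in brackets) called lower (bars to the left) or higher (bars to the right) in fish above 40, with dotted lines at 10.6% and 10.8% for all genes tested. Black ticks show the same with the mean level of the matrix list in the model. Bars of the clock repressors keep their ticks at their ends, while those of the synapse, matrix and astroglia lists have ticks near 0. The dotted lines belong to the bars, and with the matrix level in the model 2.74% of all genes tested were called. The matrix genes are part of the term itself.

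Genes of the synapse, of neuronal differentiation and of the proteasome were called higher more often than lower, with small differences. Of 56 synapse genes 18 rose and 2 fell, 35.7% against 21.4%, with a median of 0.08. The vesicle fusion gene snap25 (ENSDARG00000058117) lay between 8.6 and 9.57 log2 CPM up to 40, median 9.31, and between 9.30 and 9.88 above 40, median 9.63. It rose by 0.40 (SE 0.06), and the bands overlapped. Over all libraries this locus had a median of 9.46 log2 CPM. The more abundant snap25 locus ENSDARG00000020609 had 11.88, and its difference between the bands is not given here. The release regulators cplx2 and rims2a rose by 0.23 (SE 0.05) and 0.26 (SE 0.05). Of 39 glutamate receptor genes 7 rose and 2 fell, 23.1%, and of 29 GABA genes 1 rose and 3 fell, 13.8%, both near or below the share of all genes. Of 55 ion channel genes 7 rose and 8 fell, 27.3%.

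Of 31 genes of neuronal differentiation 8 rose and 1 fell, 29%, led by the cytoskeletal regulator dpysl3 (0.22, SE 0.03), tuba1a (0.22, SE 0.04), neurod1 (0.48, SE 0.11) and stmn2 (ENSDARG00000033234, 0.15, SE 0.03). The proteasome and ubiquitin list had 17 rises and 1 fall among 46 genes, 39.1%. The polyubiquitin gene ubc rose 1.24-fold (log2 0.31, SE 0.05, edgeR adjusted p = 2.2e-05). The proteasome subunits psmd1 and psmd5 rose by 0.16 (SE 0.03) and 0.25 (SE 0.04), and psmd10 fell by 0.30 (SE 0.07). Of 54 ribosome biogenesis genes 11 rose and 1 fell, 22.2%, near the share of all genes, among them the processing factors bop1 (0.25, SE 0.04) and rrp12 (0.19, SE 0.03). Of 77 ribosomal protein genes 8 fell and 0 rose, 10.4%, led by rps2 (-0.24, SE 0.07), and 76 of the 77 had a negative sign. That count was 13 of 77 without fish 2 and 89, where 3489 of 19697 genes tested were called. It was 15 of 77 in iron fish alone, where 6.06% of all genes were called. In saline fish alone it was 0, where 8.42% of all genes were called.

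Genes of glia, vessels and matrix were called lower more often than higher. In bulk brain, fewer cells of a type and less RNA per cell cannot be told apart. Of 36 astroglia genes 14 fell and 0 rose, 38.9% against 21.4%, with a median of -0.26. The radial glia gene gfap lay between 7.11 and 8.26 log2 CPM up to 40, median 7.84, and between 5.55 and 7.82 above 40, median 7.43, a 1.37-fold fall (log2 -0.45, SE 0.11, edgeR adjusted p = 0.003). The bands overlapped widely, with 16 fish above 40 at or above the lowest fish of the lower band. The glutamine synthetase gene glul (ENSDARG00000100003), fabp7 (ENSDARG00000034650) and lfng fell by 0.51 (SE 0.11), 0.59 (SE 0.11) and 0.29 (SE 0.07).

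Of 56 matrix genes 22 fell and 2 rose, 42.9%, with a median of -0.19. The crosslinking enzyme gene loxl1 lay between 4.99 and 6.37 log2 CPM up to 40, median 5.51, and between 3.92 and 5.35 above 40, median 4.85, a 1.63-fold fall (log2 -0.71, SE 0.11). The collagen genes col6a3 and col18a1a fell by 0.52 (SE 0.09) and 0.56 (SE 0.10), and the laminin gene lama2, at low levels, by 1.39 (SE 0.23). Both tenascin genes, tnc at ENSDARG00000021948 and ENSDARG00000078362, were the 2 that rose, by 0.23 and 0.26. Of 26 genes of skin, bone and pigment cells, which a dissected brain can carry along, 11 fell and 0 rose, 42.3%, among them krt18a.1 (-0.64, SE 0.13) and krt8 (-0.34, SE 0.08).

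Of 39 vascular genes 10 fell and 1 rose, 28.2%, with flt4 (-0.71, SE 0.13) and the pericyte gene rgs5 (-0.37, SE 0.10) among the falls and mfsd2a as the rise. Microglia and myelin genes passed less often. Of 45 microglia genes 4 fell and 1 rose, although 44 of the 45 had a negative sign and the median was -0.28. Without fish 89 the count was 3 lower and 0 higher, where 3528 of 19722 genes tested were called. The largest part of the list, apoeb, fell by 0.48 (SE 0.09). Of 33 myelin genes 3 fell and 1 rose, 12.1%, with mbpb at -0.34 (SE 0.09). Without fish 2 and 89 there were 6 falls and 0 rises among the 33, where 3489 of 19697 genes tested were called.

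**Figure D4:**
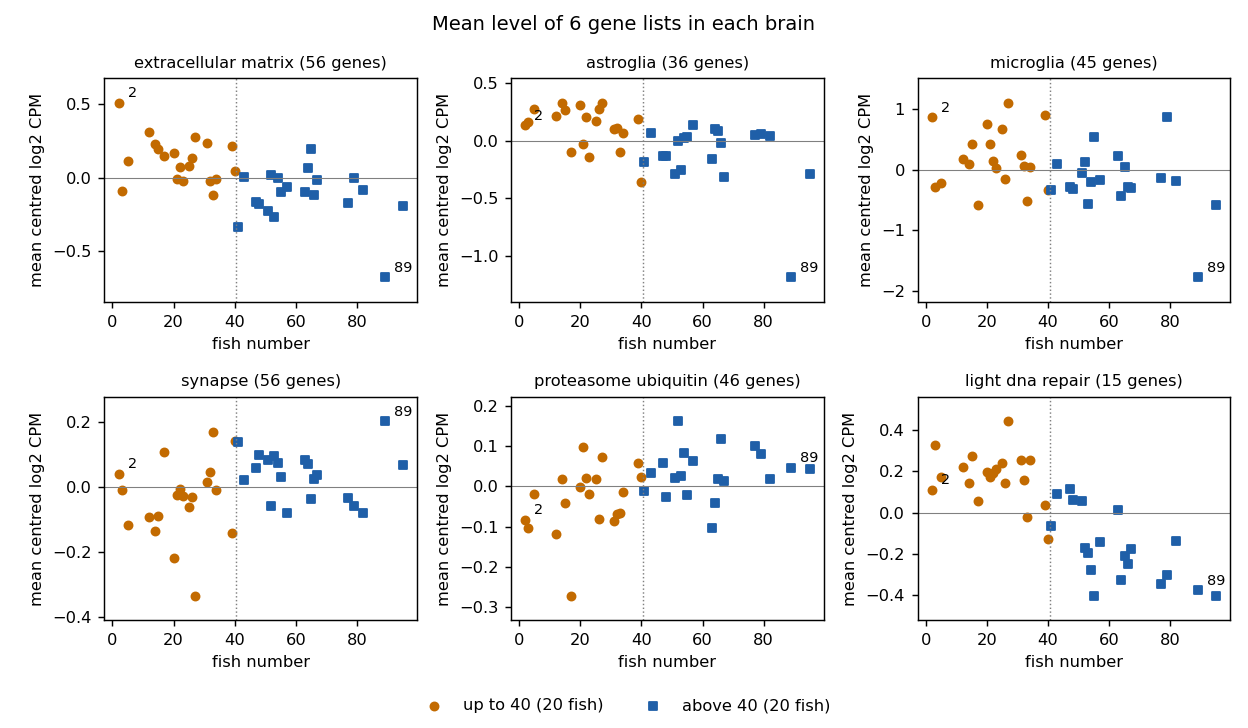
Mean of the centred log2 CPM of 6 gene lists in each of the 40 brains against fish number, circles up to 40 and squares above 40, with fish 2 and 89 marked. The repair list is lower above 40. Of its 15 members 0 were called in the slope up to 40, and 4 fell in the slope above 40. The matrix and astroglia lists differ between bands with wide overlap, and fish 89 has the lowest matrix, astroglia and microglia levels.

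Summed over the 39 astroglia genes in the table, levels ran from 7936 to 15802 CPM up to 40, median 13262, and from 4149 to 13897 above 40, median 12003. The 60 matrix genes summed to 1594 to 2229 CPM, median 1813, and to 1393 to 1998, median 1771. The 36 genes of skin, bone and pigment summed to 294 to 720 CPM, median 395, and to 155 to 418, median 320. The 53 microglia genes summed to 1132 to 2816 CPM, median 1675, and to 597 to 2141, median 1399. The matrix list had 1 gene with no count in any library, a locus of fmod, and the other 3 lists had 0. All of these sums overlapped between the bands, and the part of these cell types in the results was not tested.

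Depth moved with the band, and its part in these lists was not tested further than by a term for the log2 library total. With that term, under which 2061 genes were called over all, 4 astroglia genes fell instead of 14, and 13 matrix genes instead of 22. For vessels 1 rose and 2 fell, and for skin, bone and pigment 4 fell. Of the synapse list 10 rose, of the proteasome list 8 rose and 1 fell, and of the ribosomal proteins 0 were called. Of the immediate early genes 1 fell. The heat shock list had 4 rises and 9 falls, the autophagy list 6 rises and 3 falls. The clock lists had 14 rises and 17 falls, the repair list 1 rise and 5 falls, and the RNA-binding list 11 rises and 1 fall.

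Fish 2 and 89 also bore on some counts. Without them 3489 of 19697 genes tested were called. Of 28 RNA-binding genes 7 rose and 1 fell, and of 26 genes of skin, bone and pigment 7 fell. Of 94 lysosome genes 10 fell and 2 rose, and of 85 oxidative phosphorylation genes 14 fell. Neither of these last 2 lists was called above the share of all genes.

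The matrix level moved with many of the called genes. The mean centred level of that list ran from -0.12 to 0.51 up to 40, median 0.12, and from -0.68 to 0.19 above 40, median -0.10. With this level as a further term, chosen after seeing the data, 538 genes were called, 2.74% of those tested, 237 higher and 301 lower, and 475 of them were among the 4201. The term and the band overlap, since the matrix level itself differed between the bands, so what it removes cannot be told apart from the band. Of the 46 clock genes 29 were still called. The 6 repair genes that fell became 5, with ddb2 at -1.37 and cry-dash at -1.53. For fus the log2 fold change was 0.50, for hsf2 -1.04 and for cipca -1.35. Of the synapse list 1 gene was called, of the proteasome list 3 and of the astroglia list 1. Of the 39 vascular genes 3 rose and 0 fell, against 1 and 10 without the term. Their median log2 fold change went from -0.12 to 0.10. The median of the 45 microglia genes went from -0.28 to 0.05, with 0 called. For gfap the value became -0.19 (edgeR adjusted p = 0.48). The matrix genes are part of the term itself, and loxl1 had -0.27 (adjusted p = 0.055, edgeR).

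Neuropeptide genes of the hypothalamus were not called more often than all genes. Of 52 genes 9 fell and 0 rose, 17.3%, below the 21.4% of all genes called, and 40 of the 52 had a negative sign. With the log2 library total as a term 4 fell and 0 rose, against 2061 of 19668 genes called. With the matrix level as a term 1 fell and 0 rose, against 538. The gene pomc, which encodes the precursor of alpha-MSH and ACTH, was measured at low levels of -3.69 to 0.92 log2 CPM up to 40 and -3.20 to -0.92 above 40 and fell 3.59-fold (log2 -1.84, SE 0.34, edgeR adjusted p = 0.00024). The feeding peptide gene agrp fell by 1.31 (SE 0.33). The genes pmchl and pmch, which encode melanin-concentrating hormones, fell by 0.83 (SE 0.21) and 0.64 (SE 0.17). For pmch the range was 2.77 to 5.56 log2 CPM, median 4.1, and 2.67 to 4.04, median 3.65, with wide overlap. Of 5 pituitary genes tested 1 was called, which is pomc itself, so this is the same fall and not a second one. The mean centred level of the pituitary list had a median of 0.12 up to 40 and -0.21 above 40. The part of carried-over pituitary in the fall of pomc was not tested.

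Of 64 genes of iron handling 14 fell and 5 rose, 29.7% against 21.4%. With the log2 library total as a term 8 of the 64 fell and 0 rose, against 2061 of 19668 genes called. The ferrochelatase gene fech, the last step of heme synthesis, lay between 1.97 and 3.07 log2 CPM up to 40, median 2.37, and between 0.91 and 2.28 above 40, median 1.62. It fell 1.86-fold (log2 -0.89, SE 0.10, edgeR adjusted p = 1.4e-07), and 1 fish above 40 reached the range of the lower band. The mitochondrial iron importer slc25a28, the transporter flvcr2 (ENSDARG00000031506) and the ferroxidase ceruloplasmin (cp) fell by 0.30 (SE 0.04), 0.67 (SE 0.10) and 0.76 (SE 0.12). Of 49 redox genes 7 fell and 2 rose, 18.4%, led by nfe2l2 (-0.46, SE 0.07), which switches on antioxidant genes, and by gss of glutathione synthesis (-0.46, SE 0.07).

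Of 94 lysosome genes 15 fell and 4 rose, 20.2%, near the share of all genes. Besides naglu, the proton pump subunit genes moved apart, with atp6v0a1 (ENSDARG00000020847) at -0.37 (SE 0.07) and atp6v1a (ENSDARG00000034534) and atp6ap1a at 0.21 (SE 0.04) and 0.18 (SE 0.04). Of 51 autophagy genes 10 rose and 5 fell, 29.4%, and the falls included the lysosomal regulators tfeb (-0.38, SE 0.08) and tfe3b (-0.39, SE 0.08).

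Of 37 immediate early genes 2 rose and 6 fell, 21.6% against 21.4%, led by egr4 (-0.58, SE 0.12). Of 30 glucocorticoid-responsive genes 2 rose and 7 fell, 30.0%, and the falls include both per1 genes and pomc, which are on other lists too. The forkhead gene foxo3b rose by 0.41 (SE 0.07). Of 13 thyroid genes tshr alone was called (-0.58, SE 0.19). Of 85 nuclear oxidative phosphorylation genes 6 fell and 0 rose, 7.06%, of 13 mitochondrial genes mt-co1 was called (-0.19, SE 0.06), and of 40 interferon genes 0 were called by edgeR. The lists of lens and retina, muscle and blood had 1, 1 and 0 called members of 25, 21 and 11.

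The difference between the bands was tested for dependence on genotype, treatment and sex. By edgeR 0 genes were called for each of the 3 interactions, with 675, 1488 and 654 genes at an unadjusted p under 0.05. DESeq2 called 0, 0 and 1, and limma voom 0, 0 and 0. The smallest p-values belonged to zgc:92380, gpr26 and s100a11 for genotype, to surf4, nup43 and yars1 for treatment, and to zranb1, utp14c and ENSDARG00000081758 for sex, and none of these passed in edgeR. The gene zranb1 was the 1 called by DESeq2 (adjusted p = 0.024). For naglu the interaction was -0.03 (SE 0.15) with genotype, 0.08 (SE 0.14) with treatment and -0.12 (SE 0.14) with sex.

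The bands were also compared within each sex, genotype and treatment, in fits that share no library within a pair. In females 793 genes were called (3.95%) and in males 323 (1.6%). Among genes tested in both, 142 were called in both sexes, which is 18% of the female and 44.2% of the male calls. All 142 had the same direction, and 118 of them are not on the clock lists. Over all genes tested in both sexes 73.6% had the same direction. In heterozygous fish 1360 genes were called (7.11%) and in homozygous fish 512 (2.74%). In both were 234, 17.3% and 45.8% of the 2 lists, all in the same direction, against 74.3% of all genes. In saline fish 1587 genes were called (8.42%) and in iron fish 1161 (6.06%). In both were 344, 21.7% and 29.7% of the 2 lists, again all in the same direction, against 67.6% of all genes. Genes called in both fits are those with clear differences in each, so their shared direction is a description only. Of the calls of either sex, called in the other or not, 99.1% had the same direction there. For heterozygous and homozygous calls it was 97.6% and 97.3%, and for saline and iron calls 90.7% and 91.6%.

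For nr1d1 the log2 fold change ran from -2.02 in homozygous to -1.77 in iron fish. For ddb2 it ran from -1.38 in males to -1.14 in females, and for fus from 0.51 in iron to 0.68 in saline fish. For fech it was -0.98 in homozygous and -0.81 in saline fish. The astroglia gene gfap had -0.61 in saline and -0.33 in homozygous fish, and neither subset passed for it.

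**Figure D5:**
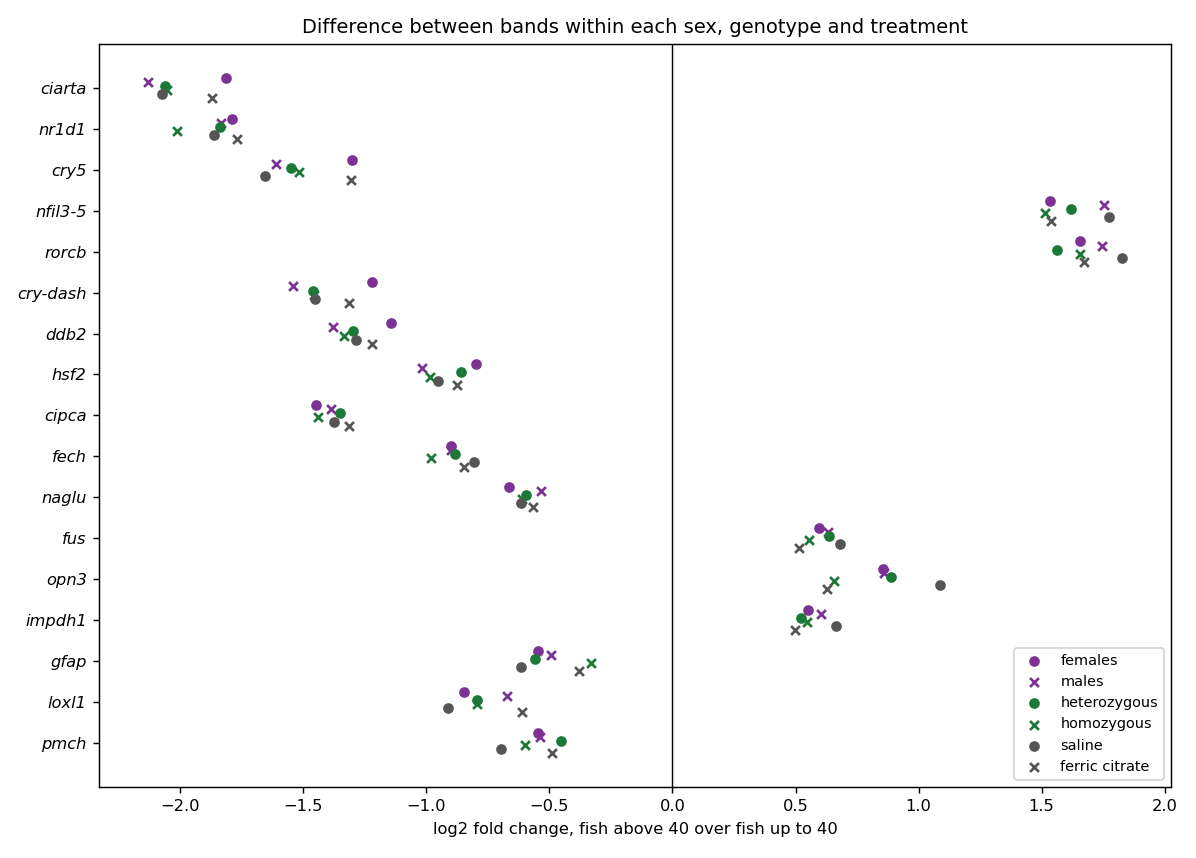
Log2 fold change of fish above 40 over fish up to 40 for 17 genes, fitted separately in females and males, in heterozygous and homozygous fish, and in saline and ferric citrate fish. In each of the 6 subsets the 17 genes keep the sign they have over all fish. The 17 were chosen among genes called over all fish, and each subset is a part of those fish. The shared sign is therefore a description and not independent evidence.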

How the data were processed

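Whole brains of 40 zebrafish were profiled by sequencing of polyA RNA. The authors deposited a table of raw counts with 32057 Ensembl genes, and all 40 columns, titled by fish number, were used. The submitters' processing notes list GRCz11 as the build and, without versions, featureCounts, UMI-tools, STAR and fastp as tools. Whether counting used strand was not stated, so overlapping genes, antisense genes and near-identical paralogs are uncertain. Of 780 pairs of libraries 0 held identical values, and chi-square divided by its degrees of freedom was at least 6.96.

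The bands, gene lists and tests were chosen with earlier results of these data known. Symbols matched 28988 genes (90.4%). Of 1888 list symbols 1747 matched, some after a trailing paralog letter was dropped. Genes that share a symbol are given with Ensembl IDs.

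The counts as deposited went into edgeR 4.0.16 under R 4.3.3, with filterByExpr, TMM and a robust quasi-likelihood fit of 10 coefficients that left 30 residual degrees of freedom. DESeq2 1.42.0, limma 3.58.1 and sva 3.50.0 served as alternatives. In simulated counts of 19668 genes for the comparison of the bands, edgeR found 50% of the genes changed 1.25-fold. It found 96% of those changed 1.5-fold and 100% of those changed 2-fold, and called 5 that had not been changed. The simulated counts held no effect of tank, sex, genotype or treatment and no difference that many genes share. Only genes above a low mean count were changed. The 5 therefore do not measure false calls in the real counts. Recovery of smaller changes was not tested, and the median size among called genes was 0.22 on the log2 scale.

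Named genes are up to 3 called members of each clock list, the 12 largest rises and the 12 largest falls outside them (only genes whose mean log2 CPM reached 1 and whose symbol is a gene name, not a clone or locus name), up to 4 called members of each other list, up to 6 genes per slope, 3 per interaction, and naglu. Genes named beyond that rule were chosen after their values were seen. A planned description of promoter motifs was not run, because promoter sequences were not used here. Each library is a different fish.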

Additional observations from a re-analysis of the deposited data

How the results depend on the processing

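The 4201 genes called between the bands stayed within 1.5 times of that number under 16 of 25 other settings, among them DESeq2 (4502), limma voom (3977), upper quartile factors (4031, 1813 higher and 2218 lower), a linear fish number in place of the band (4288) and no home tank term (4239). With the log2 library total as a term it was 2061, without home tank 1 2441 and without home tank 2 1179. With fewer fish it was 323 in males, 793 in females, 1587 after saline, 1161 after ferric citrate, 1360 in heterozygous and 512 in homozygous fish. The matrix level as a term, chosen after seeing the data like the fits without fish 2 and 89, gave 538. Subsets test fewer samples, and the cause of the other drops was not tested. DESeq2 called 65 genes for the slope up to 40 against 15, 93 for the slope above 40 against 57, and 1 for the interaction with sex against 0. Without fish above 80 the slope above 40 had 29. Of 35 called clock genes 22 were called under all 29 alternatives, and of 184 called genes among those named 47 were. The vascular gene foxc1b (-0.54) turned to 0.0535 with the matrix level as a term. No paired analysis was possible because the bands share no fish numbers. Library totals differed between the bands, so what the library total term removes cannot be told apart from the band.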
